A study of Mus musculus with 5 samples.

Results

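The FoxA and FoxP forkhead genes of the lung epithelium were followed here in airway tissue of mouse embryos at E13.5. The genes are Foxa1, Foxa2, Foxa3, Foxp1, Foxp2 and Foxp4, found by exact symbol, and they are 6 of 19699 gene entries in the deposited expression table. The libraries came from 2 mutant samples, in which Prmt5 was deleted in lung epithelial cells, and from 3 WT littermate samples, called controls. Prmt5 methylates arginines of histones and many other proteins. The genotype label of the mutants reads Prmt5 knockdown, while the growth protocol speaks of a knockout, and the design text names Shh beside Prmt5 in the mutant genotype without saying which driver deleted the gene or which alleles the littermates carried. The mice were C57, the sample was the main airway with trachea and lung, and the labels do not say whether a sample was 1 embryo or a pool. The p-values therefore measure the spread between these samples, which may be technical in part.

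Forkhead factors bind DNA through a shared winged helix domain. Foxa1 and Foxa2 are pioneer factors that open chromatin in the foregut endoderm and act together in the branching lung epithelium, while Foxa3 is best known from liver and gut and from mucus-producing airway cells. Foxp1, Foxp2 and Foxp4 act mainly as repressors. They pair with each other through a leucine zipper, recruit the NuRD and CtBP corepressors, and restrain secretory and alveolar genes in the lung epithelium. Foxp1 and Foxp4 are also made in many other tissues.

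Each gene had 1 FPKM value in each library, which is reads per length of exon and per size of the library, so that levels can be compared between genes per length. The libraries held 15652503 to 18682463 reads. Prmt5 itself was at 23.7 and 20.1 FPKM in mutants, against 28.7, 26.4 and 25.8 FPKM in controls. The groups did not overlap, but the difference did not pass (log2 change -0.29, limma adjusted p = 0.234). Whole tissue holds cells outside the epithelium, reads outside deleted exons still count, and the level of Prmt5 is therefore a partial check of the labels. In such bulk tissue, fewer cells of a type and less RNA per cell cannot be told apart. Epithelial marker levels differed between the libraries. A set of 26 pan-epithelial markers summed to 420.35 and 424 FPKM in mutants, and to 964, 497 and 382 FPKM in controls. Control replicate 1 thus stood far above the other 4 libraries. Some values are also given without it, but not every value that it moves. Sex make-up also differed. An index of male RNA from 0 to 1, computed from Y-linked genes and Xist, was 0.999 and 0.997 in mutants and 0.595, 0.543 and 0.125 in controls. It nearly coincides with the genotype, so its part in the results cannot be told apart from that of the genotype. In controls Xist was at 57.3, 58.1 and 115 FPKM, and the Y-linked genes summed to 23.0, 18.85 and 4.49 FPKM. Each control thus held RNA of both sexes, and so of more than 1 embryo. For the mutants, with Xist at 0.0673 and 0.289 FPKM, the number of embryos is not known.

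Of the 6 genes, Foxa1 alone passed the test, and it was lower in mutants. Foxa2 and Foxp4 were at lower values in both mutants than in any control, without passing. Foxp1 and Foxp2 lay close to the controls, and Foxa3 was near the limit of detection. The test was limma on log2(FPKM + 1) over 12838 genes with at least 1 FPKM in at least 2 libraries, with a threshold of 0.05 for p-values adjusted (Benjamini-Hochberg) across that set. Of the 6 members 5 entered it, and Foxa3 did not. A gene could enter through 1 group alone, and the counts of calls include such genes. A call in either direction was made for 2.36% of all genes tested, and a call of lower in mutants for 1.37%, against 1 of the 5 members. An unadjusted p under 0.05 was found for 2421 of the 12838 genes, which is the background for such counts below. Voom on reads recovered from the FPKM values called 243 of the 12838 genes higher and 360 lower. Both mutants were below all 3 controls for 4 of the 5 members, against 24.4% of all genes tested. The median log2 change was -0.45 over the 5 members and -0.059 over all genes.

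**Figure D1:**
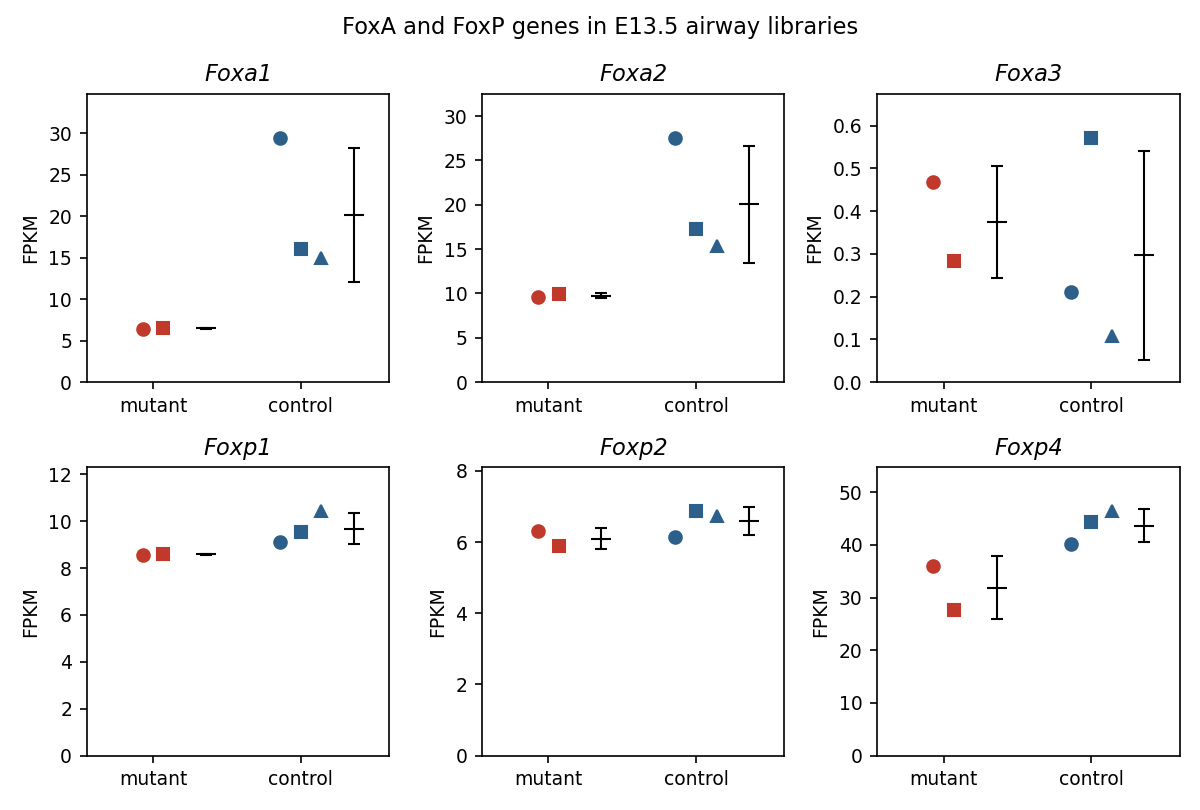
FPKM of each gene by library, mutant on the left and control on the right of each panel. Circles, squares and triangles are replicates 1, 2 and 3, and the black bars give the mean with its SD. Foxa1 was at 6.43 and 6.53 FPKM in mutants and at 14.9 FPKM or more in controls, while the groups of Foxp2 and Foxa3 overlapped.

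Foxa1 (chromosome 12, 57540628 to 57546916, minus strand, GRCm38) was at 6.43 and 6.53 FPKM in mutants, from 323 and 326 reads, which are lower bounds since the exon length the authors used for Foxa1 differs from the annotation. In controls it was at 29.5, 16.0 and 14.9 FPKM, from 1755, 834 and 867 reads. The mutants lay together and below every control, and control replicate 1 was the highest. The means were 6.48 ± 0.0727 FPKM (SD, n = 2) in mutants and 20.1 ± 8.09 FPKM (SD, n = 3) in controls, a fold of 0.322. The log2 change was -1.43 (SE 0.26, 95% interval -2.05 to -0.82, limma adjusted p = 0.0419), the 77th lowest of the 12838 genes tested. Without control replicate 1 the log2 change was -1.14 (limma adjusted p = 0.0122). The call was lost without mutant replicate 1 (limma adjusted p = 0.198), without mutant replicate 2 (0.308) and without control replicate 2 (0.0586), and 5 of 12 other settings also ended it, with the log2 change between -1.12 and -2.19 throughout.

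Foxa2 (chromosome 2, 148042877 to 148046969, minus strand) was at 9.59 and 9.95 FPKM in mutants, from 358 and 369 reads. In controls it was at 27.6, 17.3 and 15.4 FPKM, from 1221, 667 and 663 reads. As with Foxa1, the mutants were close together and the highest value was that of control replicate 1. The log2 change was -0.92 (SE 0.23, 95% interval -1.45 to -0.40), which did not pass (limma adjusted p = 0.0833), and it was the 307th lowest. Foxa2 passed only in a pair of the 17 other fits. Without control replicate 1 the log2 change was -0.68 (limma adjusted p = 0.0452), and with epithelial content as a covariate it was -0.66 (limma adjusted p = 0.0413). The pair is not separate, since control replicate 1 stood far above the other libraries in epithelial content.

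For both Foxa1 and Foxa2 the mutants lay below all controls, and the DNA before their starts is shown so that the pair can be compared. The windows are from RefSeq (GRCm38.p6) and lie on the minus strand, with annotated exon bases left out. Foxa1 has 1 start in that table and Foxa2 has 3, of which the outermost is shown. The Foxa1 stretch, which is intronic in a longer GENCODE transcript of Foxa1, is chr12:57546122-57546361 and the Foxa2 stretch is chr2:148046970-148047219. Capitals mark the forkhead motif TGTTTAC, searched on both strands, which reads GTAAACA here. It begins 141 bases before the Foxa1 start. Only these exact letters were searched, and variants of the motif are not marked.
Foxa1: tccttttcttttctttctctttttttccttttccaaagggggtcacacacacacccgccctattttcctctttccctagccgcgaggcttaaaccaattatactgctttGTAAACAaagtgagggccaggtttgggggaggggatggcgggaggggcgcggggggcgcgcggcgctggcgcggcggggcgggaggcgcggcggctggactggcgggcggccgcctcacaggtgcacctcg
Foxa2: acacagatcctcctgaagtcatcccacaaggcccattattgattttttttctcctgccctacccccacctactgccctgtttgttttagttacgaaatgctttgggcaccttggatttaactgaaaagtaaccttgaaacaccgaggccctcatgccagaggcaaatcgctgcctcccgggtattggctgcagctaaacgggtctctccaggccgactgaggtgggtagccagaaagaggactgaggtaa
Of the 9 windows that the table gives for 5 members, each with 250 bases before a start and 50 after it, only that of Foxa1 holds these letters. They occur in 3.65% of all 32851 windows. A match is a description of the sequence, and nothing here measures binding.

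Foxa3 (chromosome 7, 19013284 to 19023538, minus strand) was at 0.467 and 0.282 FPKM in mutants, from 15 and 9 reads. In controls it was at 0.210, 0.572 and 0.108 FPKM, from 8, 19 and 4 reads. The groups overlapped, the values rest on 55 reads in all, and no difference was detectable at this depth. Spdef, a factor of goblet cells, was also low, at 0 and 0.117 FPKM in mutants and at 1.81, 0.869 and 0.828 FPKM in controls, and was not tested. Liver markers, in which Foxa3 would also be found, overlapped between the groups. Their 8 genes summed to 5.27 and 41.2 FPKM in mutants and to 7.40, 16.2 and 18.4 FPKM in controls, and their part in the Foxa3 values was not tested.

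Foxp4 (chromosome 17, 47867133 to 47924645, minus strand) was the most abundant of the 6 genes per length in every library. It was at 36.1 and 27.7 FPKM in mutants, from 2801 and 2135 reads, and at 40.2, 44.4 and 46.4 FPKM in controls, from 3698, 3566 and 4167 reads. The groups did not overlap, and the mutants differed more from each other than for any other FoxP gene. The log2 change was -0.45 (SE 0.14, 95% interval -0.77 to -0.13), which did not pass (limma adjusted p = 0.141). It was -0.64 without mutant replicate 1 and -0.27 without mutant replicate 2, so its size rests on which mutant library is kept. An annotated antisense gene, Gm15556, overlaps Foxp4, and since the use of strand is not given in the sources used here, reads of both cannot be told apart.

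Foxp1 (chromosome 6, 98925338 to 99522721, minus strand) was at 8.56 and 8.61 FPKM in mutants, from 1854 and 1853 reads. It was at 9.10, 9.53 and 10.4 FPKM in controls, from 2338, 2137 and 2614 reads. The mutants lay just below the lowest control. The log2 change was -0.16 (SE 0.11, 95% interval -0.41 to 0.10, limma adjusted p = 0.510), so these data allow a fall by up to 0.41 or a rise by up to 0.10 on the log2 scale. The log2 change turned to 0.043 when the male index was a covariate. The predicted genes Gm20696 and Gm20705 and the miRNA genes Gm22328 and Gm49348 overlap Foxp1, and how reads were shared among them was not given.

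Foxp2 (chromosome 6, 14901349 to 15441977, plus strand), which marks the distal epithelium of the mouse lung, was at 6.31 and 5.89 FPKM in mutants, from 1626 and 1507 reads. It was at 6.13, 6.87 and 6.75 FPKM in controls, from 1873, 1832 and 2009 reads. The groups overlapped, with control replicate 1 between the mutants. The log2 change was -0.094 (SE 0.11, 95% interval -0.36 to 0.17, limma adjusted p = 0.728). The value is per 16346 bases of summed exons, so a shorter transcript in this tissue would have a higher level than its FPKM gives. The miRNA gene Gm25470 lies within it.

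Per length, the order of levels in mutants was Foxp4 at 31.9 ± 5.94 FPKM, Foxa2 at 9.77 ± 0.255, Foxp1 at 8.58 ± 0.0369, Foxa1 at 6.48 ± 0.0727, Foxp2 at 6.10 ± 0.299 and Foxa3 at 0.375 ± 0.131 FPKM (SD, n = 2 each). In controls it was Foxp4 at 43.7 ± 3.19 FPKM, Foxa1 at 20.1 ± 8.09, Foxa2 at 20.1 ± 6.58, Foxp1 at 9.69 ± 0.680, Foxp2 at 6.58 ± 0.396 and Foxa3 at 0.297 ± 0.244 FPKM (SD, n = 3 each). Foxa1 thus stood near Foxp2 in mutants, and beside Foxa2 in controls, where these 2 genes did not differ beyond their spread. The highest library exceeded the lowest 4.58-fold for Foxa1 and 2.88-fold for Foxa2, but 1.68-fold for Foxp4, 1.22-fold for Foxp1 and 1.17-fold for Foxp2.

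Foxa1 and Foxa2 were also set against epithelial genes of the same library. Such a ratio does not depend on the scaling between libraries. Control replicate 3 had a lower pan-epithelial sum, 382 FPKM, than either mutant, at 420.35 and 424 FPKM, and its Foxa1 level was 14.9 FPKM against 6.43 and 6.53 FPKM in the mutants. Its Foxa2 level was 15.4 FPKM, against 9.59 and 9.95 FPKM in the mutants. This is 1 library, and the part of epithelial content in the FoxA values was not tested by it. With the log2 of that sum as a covariate, Foxa1 had a log2 change of -1.12 (SE 0.13, limma adjusted p = 0.0122), and the 2 FoxA genes passed as lower where 1.26% of all genes did. Control replicate 1 stood far above the others in that sum. The covariate fit is therefore not separate from leaving this library out, where Foxa1 was at -1.14 and Foxa2 at -0.68.

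**Figure D2:**
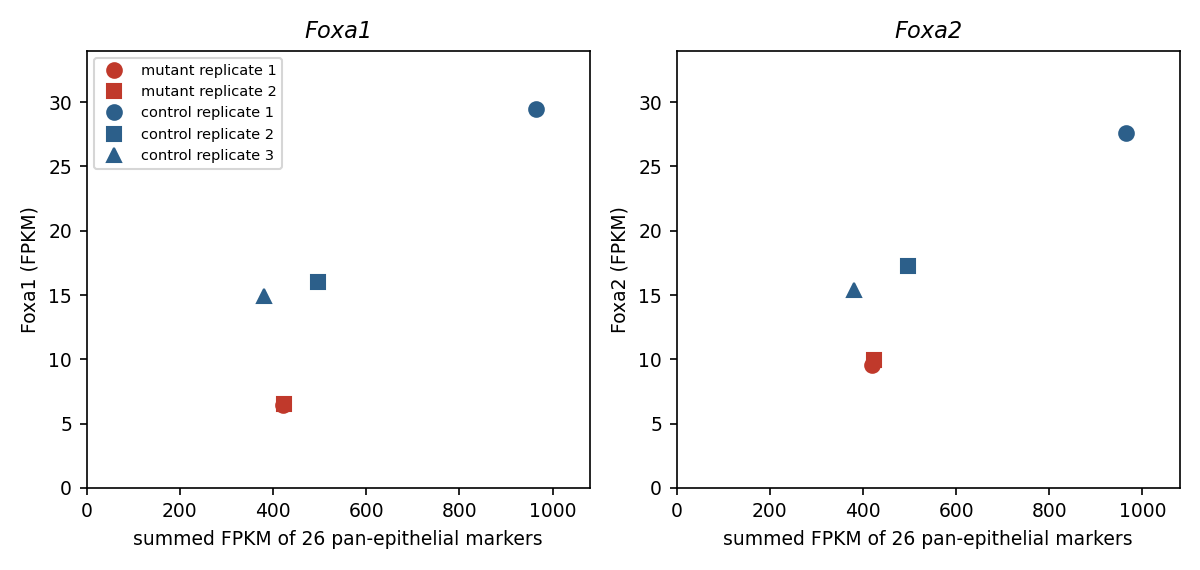
Foxa1 (left) and Foxa2 (right) in FPKM against the summed FPKM of 26 pan-epithelial markers, 1 point for each library, mutants in red and controls in blue. Control replicate 1 is far to the right at 964 FPKM, and both mutants, near 420.35 and 424 FPKM, lie below the other 2 controls on the vertical axis.

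Epcam, a cell adhesion gene of epithelia, served as the first denominator. The ratio of Foxa1 to Epcam was 0.168 and 0.163 in mutants and 0.238, 0.241 and 0.290 in controls, with no overlap. The log2 difference was -0.63, and the exact permutation test, two-sided, gave p = 0.1. With 2 libraries against 3 the exact test cannot give a smaller p, so no such ratio can pass. For Foxa2 the ratio to Epcam overlapped, at 0.251 and 0.248 in mutants and 0.223, 0.259 and 0.299 in controls, with a log2 difference of -0.053 (exact permutation p = 0.7) that turned to 0.051 without control replicate 3.

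Other denominators gave other sizes. Set against the pan-epithelial sum, the log2 difference was -1.14 for Foxa1 and -0.56 for Foxa2, with mutants below all controls for both (exact permutation p = 0.1 and 0.2). Set against Nkx2-1, the lung lineage factor, it was -1.63 for Foxa1 and -1.06 for Foxa2 (exact permutation p = 0.1 and 0.2), and Nkx2-1 was at 36.1 and 32.8 FPKM in mutants and at 40.2, 43.1 and 20.4 FPKM in controls. The difference was negative for both genes against all 3 denominators, and for Foxa2 the groups overlapped against Epcam alone. Epcam is also part of the pan-epithelial sum, so these denominators are not separate. Against Epcam, the sign for Foxa2 turned without control replicate 3.

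Foxa1 was also set against Foxa2. The ratio of Foxa1 to Foxa2 was 0.671 and 0.657 in mutants, against 1.07, 0.930 and 0.972 in controls. Mutants and controls did not overlap, and the log2 difference was -0.57 (exact permutation p = 0.1). Among FoxP genes the ratio of Foxp1 to Foxp2 overlapped, at 1.36 and 1.46 in mutants and 1.48, 1.39 and 1.55 in controls (log2 difference -0.064, exact permutation p = 0.4). The ratio of Foxp1 to Foxp4 was 0.237 and 0.311 in mutants and 0.226, 0.215 and 0.225 in controls (log2 difference 0.29, exact permutation p = 0.1), and that of Foxp4 to Foxp2 was 5.72 and 4.70 in mutants and 6.55, 6.46 and 6.88 in controls (log2 difference -0.35, exact permutation p = 0.1). Foxp2 to Epcam was 0.165 and 0.147 in mutants and 0.0496, 0.103 and 0.131 in controls (log2 difference 0.83, exact permutation p = 0.2), and the log2 difference was 0.42 without control replicate 1. Without mutant replicate 2 the log2 difference was 0.096 for Foxp1 to Foxp4 and -0.21 for Foxp4 to Foxp2. Adjusted over the 11 ratios compared, the exact permutation p-values were 0.183 to 0.7. The ratios to the pan-epithelial sum, Foxa2 to Nkx2-1 and Foxp4 to Foxp2 were chosen after seeing the data.

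**Figure D3:**
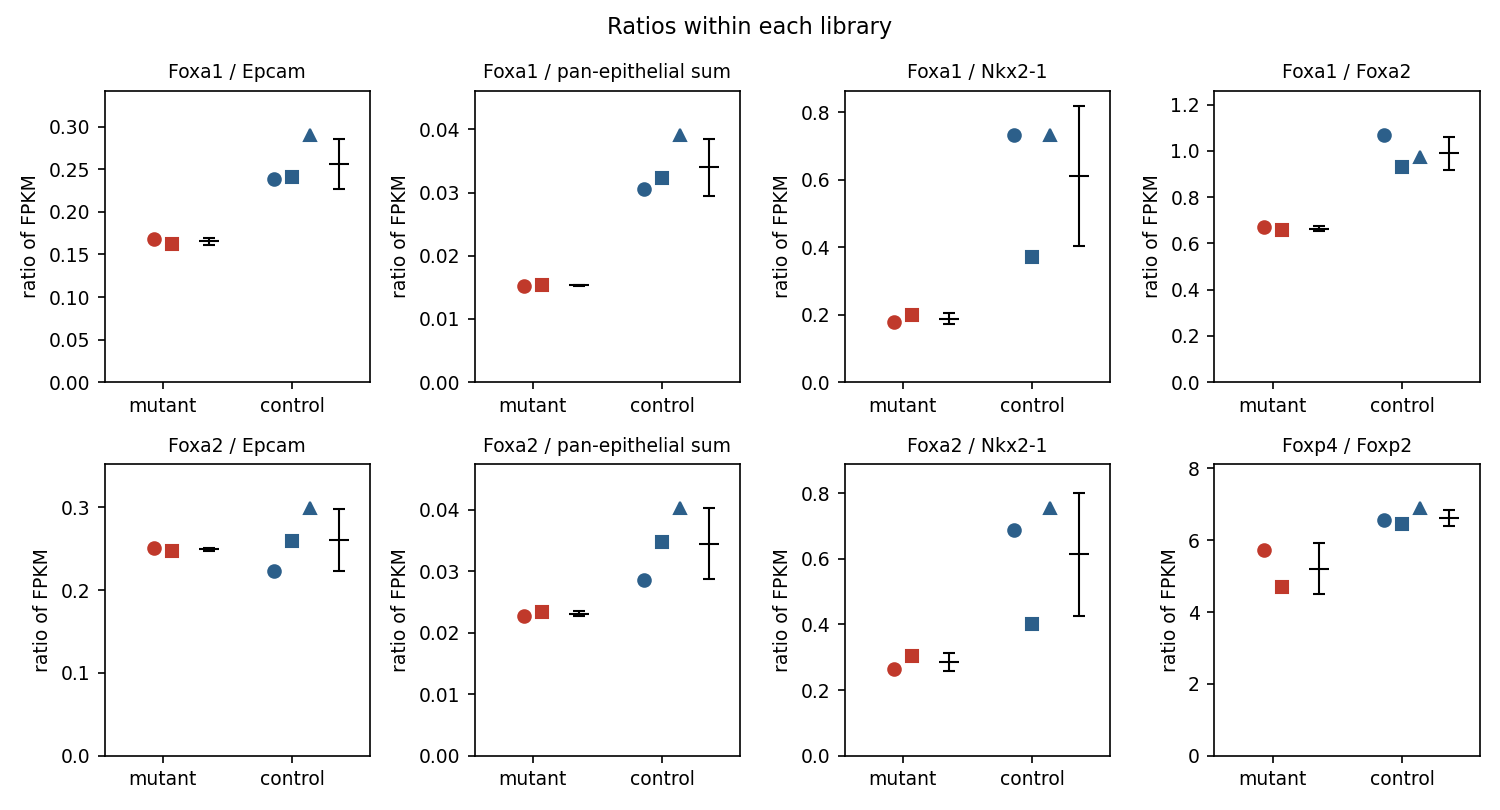
Ratios of FPKM within each library, mutant on the left and control on the right of each panel. Circles, squares and triangles are replicates 1, 2 and 3, and the black bars give the mean with its SD. In all 4 panels of the top row, which have Foxa1 on top of the ratio, both mutants lie below all 3 controls, while the panel of Foxa2 over Epcam overlaps.

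The pan-epithelial markers spread in both directions around a negative median. Of the 26 pan-epithelial markers, all tested, 1 was called higher and 0 lower by limma, their median log2 change was -0.33, and 20 had a negative sign. At an unadjusted p under 0.05, 2 were higher and 6 lower, and voom on recovered reads called 2 higher and 1 lower. The lowest was Esrp2, a splicing regulator of epithelia, at 3.35 and 3.22 FPKM in mutants and 12.9, 7.11 and 6.30 FPKM in controls (log2 change -1.13, limma adjusted p = 0.0744). Epcam was at 38.2 and 40.1 FPKM in mutants and 124, 66.5 and 51.4 FPKM in controls (log2 change -0.92, limma adjusted p = 0.181), and its log2 change was -0.57 without control replicate 1. St14, a membrane protease gene, was at 18.2 and 17.4 FPKM in mutants and 13.0, 9.02 and 6.67 FPKM in controls and had a log2 change of 0.88 (limma adjusted p = 0.0996). Without control replicate 1, Esrp2 and St14 passed (log2 change -0.84 and 1.10, limma adjusted p = 0.0343 and 0.0264). No test compared Foxa1 with this list.

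The rest of the forkhead family gave a further 36 genes, of which 19 were tested. By limma 1 was called lower and 0 higher, the median log2 change was -0.16, and 13 of 19 had a negative sign. At an unadjusted p under 0.05, 3 were higher and 5 lower, and voom called 0 higher and 2 lower. The gene called was Foxc1, a factor of mesenchyme and neural crest, at 3.44 and 2.76 FPKM in mutants and 6.74, 6.72 and 10.0 FPKM in controls (log2 change -1.09, SE 0.19, limma adjusted p = 0.0355). Its close relative Foxc2 had a log2 change of -0.99 (limma adjusted p = 0.0678), and it passed without control replicate 1 (-1.17, limma adjusted p = 0.0343). At the other end stood Foxf1 and Foxf2, factors of the lung mesenchyme that answer to hedgehog signals, and Foxo3. Foxf1 was at 44.0 and 39.5 FPKM in mutants and 16.7, 31.9 and 24.3 FPKM in controls (log2 change 0.80, limma adjusted p = 0.129). Foxf2 and Foxo3 had log2 changes of 0.70 and 0.40 (limma adjusted p = 0.258 and 0.103), and that of Foxf2 was 0.43 without control replicate 1. Foxp3, the FoxP gene of regulatory T cells, was at 0.160 FPKM or less in every library.

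**Figure D4:**
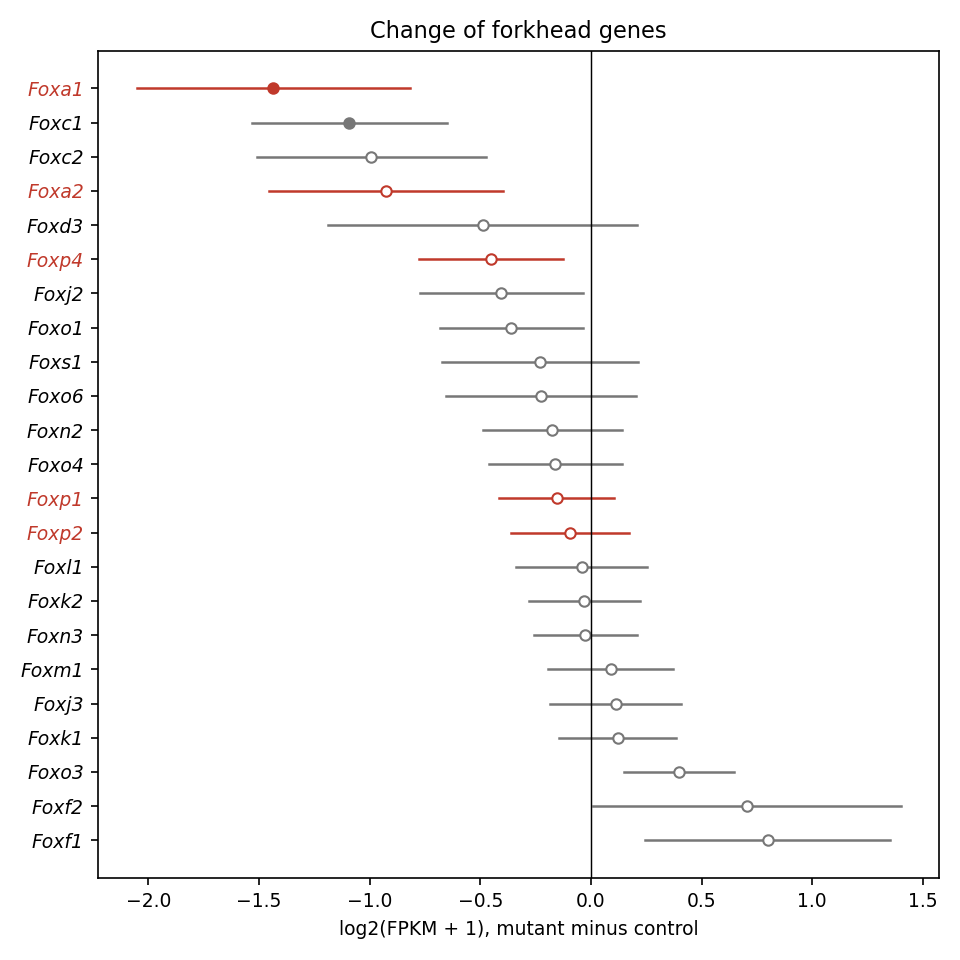
Log2 change of log2(FPKM + 1), mutant minus control, of 23 of the 24 forkhead genes tested, with 95% intervals. FoxA and FoxP genes are in red, the others in grey, and filled points passed an adjusted p of 0.05 with limma. Foxa1 at -1.43 has the lowest value, Foxa2 at -0.92 is in the lower part, and Foxp1 and Foxp2 lie near 0.

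Reported target genes of FoxA in the lung went in both directions. Of 14 listed, 12 were tested, of which 2 were higher and 2 lower by limma, with a median log2 change of 0.31. Voom called 5 higher and 2 lower, and 5 were higher and 4 lower at an unadjusted p under 0.05. Those that rose in limma were surfactant genes of the distal lung. Every control was under 1 FPKM for both, so they entered the test only through the mutants, where they were high. Sftpa1, a surfactant protein gene, was at 3.22 and 3.62 FPKM in mutants and 0.468, 0.836 and 0.0192 FPKM in controls (log2 change 1.66, limma adjusted p = 0.029). Napsa, a protease gene of surfactant processing, was at 1.65 and 1.95 FPKM in mutants and 0.322, 0.161 and 0.186 FPKM in controls (log2 change 1.19, limma adjusted p = 0.0298). With 0.1 in place of 1 added to the FPKM, Sftpa1 and Napsa lost their calls (limma adjusted p = 0.0994 and 0.0572). Those that fell were Muc1, a mucin gene, at 0.514 and 0.926 FPKM in mutants and 7.05, 4.42 and 2.60 FPKM in controls (log2 change -1.66, limma adjusted p = 0.0476), and the signal gene Shh, at 2.47 and 3.14 FPKM in mutants and 10.5, 7.50 and 5.88 FPKM in controls (log2 change -1.21, limma adjusted p = 0.0416). Muc1 entered the test only through the controls, with both mutants under 1 FPKM. Shh is itself named in the mutant genotype, so its level cannot be read as a response to the loss of Prmt5 alone.

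Reported targets of FoxP did not pass. Of 7 listed, 5 were tested, 0 were called by limma, and all 5 had a positive sign, with a median log2 change of 0.35. At an unadjusted p under 0.05, 1 was higher, and voom called 0. Aqp5, a water channel gene of alveolar type 1 cells, was at 1.14 and 1.99 FPKM in mutants and 0.193, 0.625 and 0.362 FPKM in controls (log2 change 0.87, limma adjusted p = 0.108). It entered the test only through the mutants. Mycn, a Myc family gene of the branching tips, had a log2 change of 0.35 (limma adjusted p = 0.339). Sftpc, the surfactant gene of distal progenitors, varied widely, at 34.4 and 46.7 FPKM in mutants and 18.9, 56.2 and 4.85 FPKM in controls (log2 change 1.13, limma adjusted p = 0.507). The log2 change of Sftpc was 0.28 without control replicate 3 and 1.93 when control replicate 2 was left out. Mycn had a log2 change of 0.19 without control replicate 3. With the male index as a covariate, the log2 changes of Mycn and Sftpc turned negative. Agr2, a gene of mucus-producing cells that FoxP factors restrain in the mouse lung, was at 0.332 FPKM or less in every library and was not tested.

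The corepressor partners of FoxP factors were not called. Of 15 genes of NuRD and CtBP, all tested, 0 were called by limma and the median log2 change was 0.011, with a range of -0.49 to 0.27. At an unadjusted p under 0.05, 1 was higher and 1 lower, and voom called 0. Their extremes were Chd3, a helicase of NuRD, at 53.1 and 40.9 FPKM in mutants and 67.8, 57.1 and 74.6 FPKM in controls (limma adjusted p = 0.153), and Ctbp2, with a log2 change of 0.27 (limma adjusted p = 0.252). Gatad2b, the NuRD subunit that binds FoxP factors, had a log2 change of -0.15 (limma adjusted p = 0.504).

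Other transcription factors of the lung endoderm that work beside the FoxA genes changed in both directions. Of 22 listed, 20 were tested, and by limma 1 was higher and 2 were lower. Voom called 2 higher and 2 lower, and 5 were higher and 5 lower at an unadjusted p under 0.05. Sox2, a factor of the conducting airway, was at 4.10 and 2.76 FPKM in mutants and 44.3, 16.5 and 26.9 FPKM in controls (log2 change -2.68, limma adjusted p = 0.0163). Sox21, a factor of the Sox2 domain, was at 0.518 and 0.320 FPKM in mutants and 5.13, 2.68 and 3.25 FPKM in controls (log2 change -1.69, limma adjusted p = 0.0181). It entered the test only through the controls. Etv4, induced by FGF in the distal tips, rose, at 11.2 and 9.45 FPKM in mutants against 4.26, 5.28 and 3.61 FPKM in controls (log2 change 1.08, limma adjusted p = 0.0228).

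The genes whose pattern over the 5 libraries was most like that of each member were found by the smallest distance between centred log2(FPKM + 1) values among 11693 genes. For Foxa1 they were Barx2, a homeobox gene, Cldn9, a claudin gene, and Eya2, a transcriptional cofactor gene, at distances of 0.155, 0.207 and 0.227. As a choice by likeness to Foxa1 favours, each had its highest value in control replicate 1 and both mutants below all controls. Eya2, for example, was at 1.69 and 1.36 FPKM in mutants and 10.4, 4.64 and 4.89 FPKM in controls. For Foxa2 they were Scnn1g, a subunit gene of the epithelial sodium channel, Slc15a2, a peptide transporter gene, and Grhl1, an epithelial transcription factor gene, at 0.165, 0.171 and 0.180. For Foxp4 they were Clk4, Cux2 and Col25a1, at 0.0612, 0.0773 and 0.0803. Those of Foxp1 were Nus1, Tnik and Lats1, and those of Foxp2 were Phf23, Chp1 and Wars, at distances of 0.0156 to 0.0375. The small distances for FoxP genes go with their small range between libraries.

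Genes next to the members on the chromosome did not pass. Of the 24 nearest listed genes, 2 on either side of each member, 14 were tested and limma called 0. At an unadjusted p under 0.05 there were 2, against 2421 of all 12838 genes tested, and voom called 0. Mipol1, which lies 43429 bases from Foxa1, was at 0.863 and 0.923 FPKM in mutants and 1.03, 0.794 and 0.934 FPKM in controls, with overlapping groups. The gene nearest to Foxa2, Sstr4, was at 9.58 and 5.65 FPKM in mutants and 5.45, 5.73 and 8.25 FPKM in controls, again with overlap. Of the 14 tested, 3 had both mutants below all controls, against 24.4% of all genes tested, and 2 had both mutants above them (Clec14a near Foxa1 and Frmd4b near Foxp1). The 3 were Gpr27 near Foxp1, Gpr85 near Foxp2 and Tfeb near Foxp4, with log2 changes of -0.30, -0.63 and -0.32 (limma adjusted p = 0.221, 0.191 and 0.349).

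Markers of cells outside the epithelium also differed between the groups, and FoxP genes are made in several of these cell types. Of 15 mesenchyme markers, limma called 3 higher (Fgf10, Tbx4 and Wnt2, at log2 changes of 1.79, 1.02 and 1.45) and 1 lower (Twist1, at -1.13), and their sum was 1998 and 1716 FPKM in mutants and 2050 to 2669 FPKM in controls. Skeletal muscle markers summed to 68.9 and 155 FPKM in mutants and 294 to 704 FPKM in controls, with 6 of 7 tested lower by limma. Cartilage markers had 3 of 4 lower, with sums of 26.6 and 21.7 FPKM in mutants and 54.3 to 84.1 FPKM in controls. Neuron and neural crest markers had 2 of 8 lower, with sums of 57.1 and 42.8 FPKM in mutants and 72.9 to 102 FPKM in controls. Smooth muscle markers had 1 of 5 lower, with 199 and 160 FPKM in mutants and 271 to 427 FPKM in controls. At an unadjusted p under 0.05, 7 neuron and neural crest and 4 smooth muscle markers were lower, and voom called 3 of each lower. Skeletal muscle had 7 lower and cartilage 3 by either count. Mesenchyme had 5 higher and 4 lower unadjusted, and 3 higher and 2 lower by voom. Endothelial, blood, heart and liver markers had 0 called by limma and by voom, with 1 endothelial gene lower and 1 blood gene higher at an unadjusted p under 0.05. The part of all these cell types in the values of the FoxA and FoxP genes was not tested. Sox2 of the conducting airway was lower (log2 change -2.68) and Etv4 of the distal tips higher (1.08). Whether the shares of trachea and lung differed between the samples was not tested. A ratio to Epcam or to the pan-epithelial sum does not correct for such a mix. For other sites where FoxA genes are made, limma called 1 of 2 stomach, pancreas and intestine genes higher (Cldn18, also made in the lung). It called 1 lower (Barx1), with 1 of 4 oesophagus genes lower (Sox2) and 2 of 2 floor plate genes lower (Shh and Ntn1). Sox2 is also a factor of the conducting airway, and Shh is a FoxA target of the lung that the mutant genotype names. The calls of Sox2 and Shh therefore cannot be assigned to oesophagus or floor plate. Of the thyroid genes only Hhex was tested, without a call by limma and with one by voom, and no thymus gene was tested. The defining gene of the notochord, Noto, was at 0.0766 FPKM or less, the thyroid genes Pax8 and Tg at 0.167 or less, and the intestinal Vil1 at 0.136 or less in every library. Another thyroid gene, Tshr, was higher in both mutants, at 1.15 and 0.996 FPKM against 0.176, 0.478 and 0.315 FPKM in controls. The log2 change of Hhex was 1.00.

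**Figure D5:**
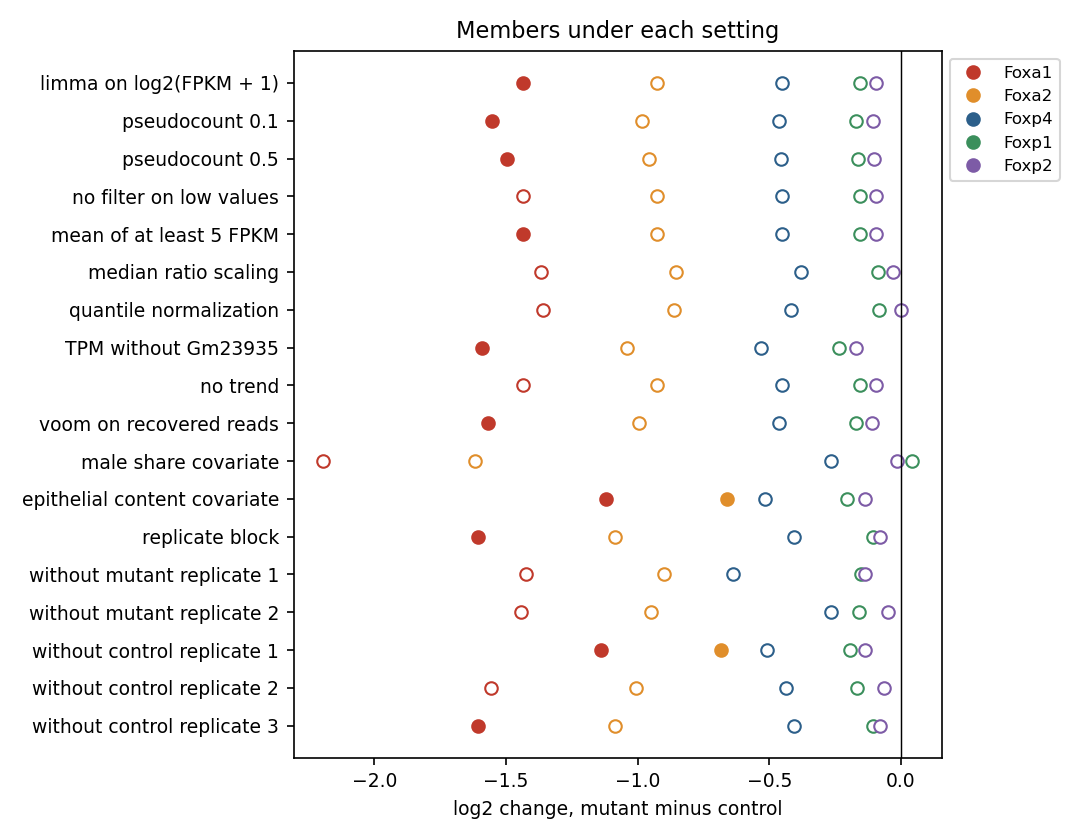
Log2 change of each member tested, mutant minus control, in limma on log2(FPKM + 1) and in 17 other fits, which differ in 1 setting or leave out 1 library. Filled points passed an adjusted p of 0.05. Foxa1 is the lowest in every row and passes in some, Foxa2 passes in a pair of rows, and no FoxP gene passes.

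With voom on reads recovered from the FPKM values, Foxa1 was called (log2 change -1.57, limma-voom adjusted p = 0.0202), where 2.80% of all genes were called lower, and Foxa2 was at -0.99 (limma-voom adjusted p = 0.0542). Foxp1, Foxp2 and Foxp4 did not pass in any of these fits. Of the 13 genes printed above with a log2 change that passed in limma, 0 passed without mutant replicate 1 and 0 without mutant replicate 2, while leaving out control replicate 1, 2 or 3 kept 13, 7 or 10 of these calls.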

How the data were processed

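RNA-seq of 2 mutant and 3 control libraries was analysed, with groups from the genotype labels and replicate numbers from the titles. Each SMARTER library was made from 1.3 ug of RNeasy-purified RNA, per the labels' protocols. The labels also hold a protocol for fat cell differentiation, which describes no embryo. The authors deposited FPKM values, a unit taken from the table's name, on GRCm38 (mm10) per the submitters' processing notes. Aligner, counter, annotation, filters and strand use were not given in the sources used here. In 100% of entries the values were whole multiples of 1 read's worth (tolerance 1e-09), which gave reads and library totals, with lengths from GENCODE M21 or from the smallest step.

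Genes at 1 FPKM or more in 2 libraries were tested with limma 3.58.1 (R 4.3.3; two-sided, with an eBayes trend) on log2(FPKM + 1), which understates changes of low genes. The limma step was run on simulated counts with a smaller spread than Foxa1 and Foxa2 had in controls, so that run does not cover these 2 genes. Ratios were tested by exact permutation over 10 splits. The alternatives are in the closing section. Members and lists were chosen with earlier results of these data known. Named are all members, Prmt5, genes past the threshold and the 3 smallest p of each list on FoxA, FoxP and the endoderm (of other marker lists, counts only), similar genes and neighbours; a few others were chosen after their values were seen. A few genes that these rules would name are not reported here.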

Additional observations from a re-analysis of the deposited data

How the results depend on the processing

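Over all genes limma called 303, 127 higher and 176 lower in mutants. Leaving out the filter on low values gave 69, voom on recovered reads 603 and the male index covariate 1. Leaving out 1 library each gave 4 to 284, with 4 lacking mutant replicate 1 and 11 lacking mutant replicate 2. Median ratio scaling gave 148 higher and 147 lower, and quantile normalization 133 higher and 115 lower. The 1 member called became 0 with no filter, median ratio scaling, quantile normalization, no trend and the male index, 2 with epithelial content, and 0 to 2 without 1 library each; the cause was not tested. The signs turned with the male index for Foxp1 (0.043), Mycn (-0.26) and Sftpc (-1.95). Without 1 library each, the ratio of Foxa2 to Epcam had log2 differences of -0.16 to 0.051, and it turned to 0.051 without control replicate 3. Of 733 other values of 44 named genes, 614 kept direction and side of the threshold, 84 lost the call and 32 gained one. Replicate numbers were not treated as pairs in the main fit. Deviations of same-numbered libraries correlated at -0.0671 and 0.0203. With 2 mutants the deviations within that group mirror each other, so these values cannot settle whether the numbers pair libraries. With the replicate block 259 genes were called, Foxa1 among them (log2 change -1.61, limma adjusted p = 0.0274), and Foxa2 was not (-1.09, limma adjusted p = 0.0534). The edgeR and DESeq2 alternatives were not run, since the deposited unit is FPKM. Depth limits Foxa3 alone among the 6 genes, and with 2 mutant libraries a call rests on both.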
